A study of Mus musculus with 6 samples.

Results

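The genes of the cytosolic ribosomal proteins were examined in C2C12 cells, a mouse skeletal myoblast line, after loss of *Phf2* and 2 d post differentiation. Members were the rows of the deposited gene table whose symbol is that of a small subunit protein (*Rps* and a number), a large subunit protein (*Rpl* and a number), a P stalk protein (*Rplp0*, *Rplp1*, *Rplp2*) or *Rpsa*. Rows with a "-ps" symbol and the S6 kinase genes were left out. The rule found 89 members among the 55401 rows of the table. Of these, 31 encode small subunit proteins, 43 large subunit proteins and 3 the P stalk, which makes 77 subunit protein genes. A further 6 are paralogs of subunit protein genes (*Rpl3l*, *Rpl7l1*, *Rpl10l*, *Rpl22l1*, *Rpl39l*, *Rps27l*), and the last 6 rows are annotated as processed pseudogenes although their symbols look like those of genes. *Fau* and *Rack1*, which also encode parts of the small subunit, have other kinds of symbol and are given beside the members.

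Each cytosolic ribosome holds a single copy of nearly every one of these proteins, bound to ribosomal RNA, and the proteins are made in step with one another. Their mRNAs are short, very abundant and begin with a run of pyrimidines, the TOP motif, through which LARP1 and the mTOR pathway set how strongly they are translated. Growing muscle fibres raise ribosome number through RNA polymerase I and MYC, and a few paralogs, such as *Rpl3l*, are known for being switched on in mature muscle. Most of these genes have left many processed pseudogenes in the mouse genome, which are copies of the spliced mRNA.

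The study compared 3 libraries of control cells with 3 libraries of *Phf2* KO cells. *Phf2* encodes a histone demethylase of lysine-methylated histone H3. KO cells came from myoblasts that received pooled CRISPR plasmids with guides to *Phf2* and were sorted as a mixed population, not grown from a clone, and control cells received a mock plasmid with a control guide and were sorted in the same way (the deposited labels name these libraries wild type). Both groups were differentiated in medium with 2% horse serum, and the 3 libraries of a group are wells of a single experiment, so p-values measure the spread between wells of that experiment and not between independent knockouts. Poly(A) RNA was sequenced, and the sum of estimated counts per library was between 52526109 and 67502788.

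*Phf2* itself was lower in each KO library. Its normalised read count, in counts scaled to a library size of 1e+06 (CPM), was 102, 95.5 and 105 in control cells and 41.1, 37.6 and 38.6 in KO cells. The log2 fold change was -1.37 (SE 0.055, adjusted p = 8.3e-09 in the quasi-likelihood test of edgeR, adjusted by Benjamini-Hochberg). All 8 markers of myotubes, among them *Des*, *Myog*, *Ttn* and *Ckm*, were over 1 CPM in every library, and their summed level was between 6334 and 7595 CPM in control cells and between 5042 and 5487 CPM in KO cells. Of 10 markers of other cell types, *Epcam* and *Krt5* had 0 counts in every library, and the summed level of the list was 8.83 to 11.6 CPM in control cells and 6.21 to 8.47 CPM in KO cells. Most of that sum was *Tubb3*, a neuronal tubulin, which fell from 7.86, 9.72 and 6.39 CPM to 5.71, 5.43 and 4.45 CPM (log2 fold change -0.62, adjusted p = 0.045 in edgeR's quasi-likelihood test). All 8 myotube markers were lower in KO cells with groups that do not overlap, and 4 passed the threshold, which were *Ckm* (log2 fold change -0.78), *Mymk* (-0.50), *Des* (-0.37) and *Myog* (-0.34). Groups did not overlap for 25.1% of all genes tested and 40.1% of those of at least 100 CPM. The threshold was passed by 6.48% and 15.8%. The part of this difference in myotube markers in the ribosomal protein values was not tested. In such bulk samples, fewer cells of a type and less RNA per cell cannot be told apart.

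Many members share nearly all of their coding sequence with pseudogenes, so the row of a gene does not hold all reads that could have come from its mRNA. Of the 83 protein-coding members, 74 had at least 1 other annotated gene whose transcript matched their coding sequence at 95% identity or more over 80% or more of its length, and 9 had none. There were 552 such pairs of a member and a copy, and in 537 of them the copy is annotated as a pseudogene. The row of the member held at least 80% of the counts of the member and its copies for 62 members, less than 80% for 19, less than 50% for 8 and less than 10% for 5. The remaining 2, *Rpl10l* and *Rpl39l*, had no counts. Windows of 90 coding bases are shown because they let a reader see how little tells a member from its most counted copy. They come from GENCODE M21 transcripts (GRCm38), are written 5′ to 3′ on the coding strand, and the capital marks the base that differs.
*Rpl21*, coding bases 247 to 336, gene at chr5:146832890-146837032, + strand: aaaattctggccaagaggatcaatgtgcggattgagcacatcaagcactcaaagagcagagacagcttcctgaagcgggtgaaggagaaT
*Gm10163*, processed pseudogene at chr9:88390837-88391317, + strand: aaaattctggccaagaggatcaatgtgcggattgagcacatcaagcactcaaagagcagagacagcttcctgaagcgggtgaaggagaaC
*Rpl26*, coding bases 88 to 177, gene at chr11:68901583-68906989, + strand: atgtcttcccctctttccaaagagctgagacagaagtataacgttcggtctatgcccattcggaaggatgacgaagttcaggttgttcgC
*Gm15772*, processed pseudogene at chr5:3236431-3236868, + strand: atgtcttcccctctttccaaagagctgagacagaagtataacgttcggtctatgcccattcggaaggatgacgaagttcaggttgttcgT
*Rps18*, coding bases 1 to 90, gene at chr17:33951999-33956001, - strand: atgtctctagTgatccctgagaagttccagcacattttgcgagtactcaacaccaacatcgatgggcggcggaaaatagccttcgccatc
*Rps18-ps5*, annotated as protein-coding at chr13:28257528-28258134, + strand: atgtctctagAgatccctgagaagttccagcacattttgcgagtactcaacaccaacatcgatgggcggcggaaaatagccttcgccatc

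Each of these copies has a stretch identical to the member that is longer than a read of 150 bases. *Rpl21* and *Gm10163* differed at 2 of 480 coding bases and shared a run of 335 bases. Over the 6 libraries the row of *Rpl21* held 1287 counts and that of *Gm10163* 43413. For *Rpl26* and *Gm15772*, with a shared run of 176 bases, the rows held 3266 and 143558 counts. A low value of such a row is therefore a value of the row and not of the gene. *Rps18* had copies whose counts came and went between libraries. *Rps18-ps6* had 0 CPM in control 1, control 3, KO 1 and KO 3, but 435 CPM in control 2 and 429 CPM in KO 2, while the row of *Rps18* was between 22.3 and 28.7 CPM in all 6 libraries.

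The levels of the subunit protein genes were compared per length, in the authors' TPM, which divides by transcript length and scales each library to a fixed total. Their mean TPM over the 6 libraries had a median of 932 and ran from 2.93 to 3206, and the third quartile was 2.27 times the first. The highest levels were those of the rows of *Rpl41* (3206 TPM), *Rpl23a* (2465 TPM), *Rplp1* (2151 TPM), *Rps14* (2123 TPM) and *Rplp0* (2099 TPM). The row of *Rpl23a* held 76.3% of the counts of its family, so the order is one of rows without their copies. *Rpl41* encodes the smallest protein of the ribosome, and *Rplp0* and *Rplp1* encode the base and an arm of the stalk that recruits translation factors. At the other end were *Rpl21* (2.93 TPM), *Rpl29* (3.37 TPM), *Rpl26* (17.3 TPM), *Rps2* (75.7 TPM) and *Rps18* (81.3 TPM), which are the 5 genes whose rows held less than 10% of the counts of their sequence family. Among the 58 subunit protein genes whose row held at least 80%, the range was 85.5 to 3206 TPM. The lowest of these, *Rps15a*, had 69771 counts over the 6 libraries and 390 coding bases. *Rps13*, with 64582 counts and 453 coding bases, stood at 659 TPM. The low end of this range thus did not follow the counts, and the reason was not tested. Of the 76 pairs of neighbours in the order of levels, 70 had overlapping values among the 6 libraries. *Rpl41* over *Rpl23a* and *Rpl23a* over *Rplp1* were among the 6 pairs that did not overlap.

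**Figure D1:**
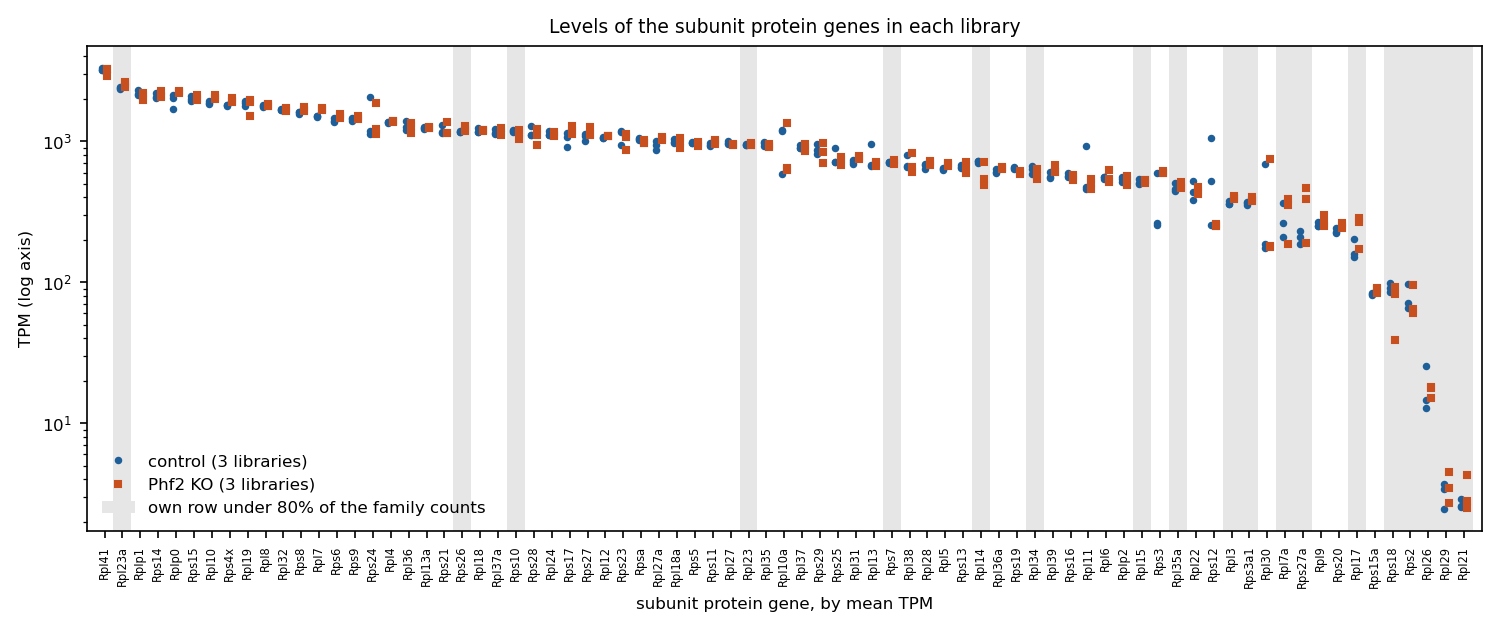
TPM (log axis) of the 77 subunit protein genes in order of their mean, with a circle for each of the 3 control libraries and a square for each of the 3 *Phf2* KO libraries; grey bands mark the genes whose row held under 80% of the counts of the gene and its near-identical copies. Levels fall from 3206 TPM at the left to 2.93 TPM at the right, and the lowest 5 genes all stand in grey bands.

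TPM and counts did not always move together between libraries. For 9 of the 77 genes, TPM differed by more than 1.5-fold between the highest and the lowest library while CPM did not. *Rps12*, a small subunit protein gene, was at 523, 256 and 1051 TPM in control cells and at 249, 259 and 251 TPM in KO cells, against 225 to 291 CPM in the same libraries. Tests of KO against control cells were therefore made on the counts.

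Few ribosomal protein genes passed the threshold (adjusted p under 0.05) between *Phf2* KO and control cells. Of the 84 members that passed the filter on low counts, 1 rose and 1 fell, or 2.38%, against a background of 6.48% of the 17310 genes tested (3.22% higher and 3.26% lower in KO cells). Of the other genes of at least 100 CPM, a level like that of most members, 16.3% passed the threshold. In 47 members the log2 fold change was above 0 and in 37 below, with a median of 0.01 against -0.001 for all genes tested. The median size of the log2 fold change, without its sign, was 0.061 for members, 0.134 for all other genes and 0.078 for the other genes of at least 100 CPM. The 3 control and the 3 KO values did not overlap for 16 members (19.0%), 11 of them higher and 5 lower in KO cells, against 25.1% of all genes tested. An unadjusted p under 0.05 was found for 16 of the 84 members, beside 3366 of the 17310 genes tested. Of the 2090 other genes of at least 100 CPM it was found for 757. The unadjusted counts of smaller groups below have the same background.

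The split between higher and lower members moved with corrections for sequence properties and with single libraries. With a correction for GC content, 62 members were higher and 22 lower, and with a correction for transcript length 58 and 26. Both corrections also moved the whole table, whose median became 0.02 in either, and the median of the members above that of all genes went from 0.013 to 0.023 with the GC correction and 0.020 with the length correction. The same splits were 63 and 21 without KO 3 but 36 and 48 without KO 1, and the median turned to -0.03 without KO 1 and -0.02 without control 3. The number of members past the threshold was 0 without KO 2, 1 without control 2 and 1 without control 3, and the share of all genes past it was then 3.22%, 2.62% and 5.8%.

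The intervals were narrow for most members. The 95% interval of the fold change lay within 1.2-fold in either direction for 67 of the 84 members (79.8%), against 32.3% of the other genes tested and 77.8% of the other genes of at least 100 CPM. Among the 17 members with a wider or shifted interval were *Rpl17*, *Rpl21*, *Rpl26*, *Rpl29*, *Rpl7a*, *Rps2* and *Rps18*, whose rows held under 50% of the counts of their families. Others of the 17 had rows with at least 80% of family counts. Of the 61 tested members with such rows, 53 had an interval within 1.2-fold. *Rpl17* had the highest fold change of all members, 0.49 on the log2 scale (95% interval -0.18 to 1.15, adjusted p = 0.40 in edgeR's quasi-likelihood test). Its row held 22.1% of the counts of its family. The sum over the family was 578, 548 and 546 CPM in control cells and 628, 587 and 543 CPM in KO cells, with a log2 fold change of 0.07.

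**Figure D2:**
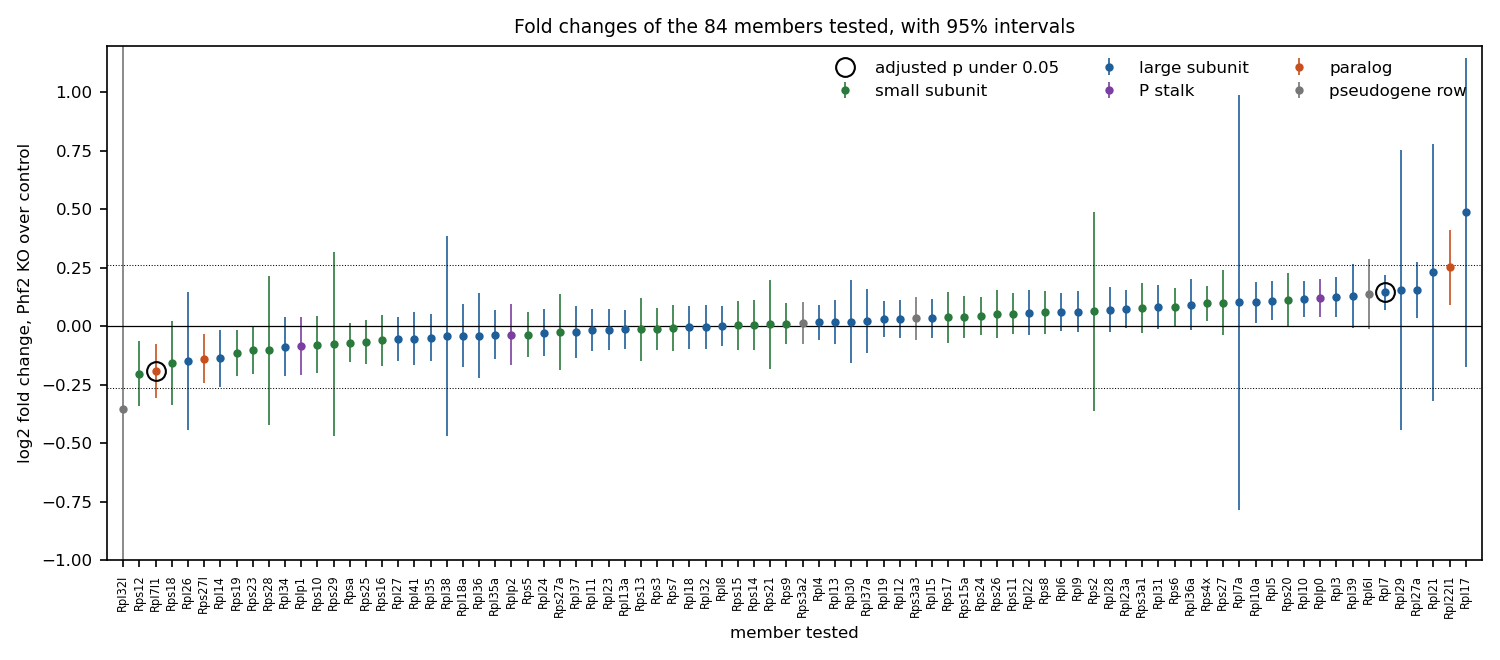
Log2 fold change of KO over control (points) with its 95% interval (vertical lines) for the 84 members tested, from lowest to highest and coloured by role; dotted lines mark a 1.2-fold change in either direction, and the interval of *Rpl32l*, -1.91 to 1.21, runs beyond the axis. The 2 circled members, *Rpl7l1* and *Rpl7*, passed the threshold, and 67 intervals lie between the dotted lines.

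*Rpl7* was the member that rose. It encodes a large subunit protein (chr1:16101295-16104662, - strand). Its level was 819, 818 and 796 CPM in control cells and 902, 904 and 884 CPM in KO cells, so each KO library was above each control library. The log2 fold change was 0.15 (SE 0.035, adjusted p = 0.023 in edgeR's quasi-likelihood test), a difference of 10.6%. Its row held 98.7% of the counts of its family. It passed the threshold in 16 of 19 alternatives with all 6 libraries, with adjusted p-values from edgeR, DESeq2 or limma between 0.0028 and 0.18. It lost the call without control 2, control 3 or KO 2 (adjusted p = 0.098, 0.051 and 0.12 in edgeR's quasi-likelihood test).

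*Rpl7l1*, the paralog of *Rpl7*, was the member that fell. Its product acts in the assembly of the large subunit (chr17:46773907-46782672, - strand). Control cells had 109, 110 and 100 CPM and KO cells 93.5, 87.1 and 98.1 CPM. Control 3 and KO 3 lay close to each other, but the groups did not overlap. The log2 fold change was -0.19 (SE 0.054, adjusted p = 0.048 in edgeR's quasi-likelihood test). With the replicate number as a block the adjusted p was 0.059, and over all alternatives with 6 libraries it was between 0.019 and 0.28, with 10 of 19 past the threshold. Of the fits without 1 library, only that without control 3 kept the call (adjusted p = 0.031 in edgeR's quasi-likelihood test), and in the other 5 it was between 0.052 and 0.22.

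The other paralogs were described next to their partners, since paralogs can replace them in the ribosome or act outside it. *Rpl22l1*, the paralog of *Rpl22* (chr3:28805436-28807424, + strand), was at 47.2, 40.3 and 40.1 CPM in control cells and at 54.5, 49.7 and 47.7 CPM in KO cells. All KO values were above all control values, with a log2 fold change of 0.25 (SE 0.074) that missed the threshold (adjusted p = 0.062 in edgeR's quasi-likelihood test) and passed it with the replicate block (adjusted p = 0.014). Its alternatives with 6 libraries gave 0.014 to 0.15. *Rps27l*, a paralog of *Rps27* known as a target of p53 (chr9:66946086-66949516, + strand), was at 68.3, 68.7 and 68.3 CPM in control cells and 61.9, 64.5 and 60.2 CPM in KO cells. The KO values were all lower, with a log2 fold change of -0.14 (SE 0.049, adjusted p = 0.12 in edgeR's quasi-likelihood test). *Rpl36al*, whose symbol lies outside the rule, had a mean of 84.3 CPM (SD 4.80) in the 3 control libraries and 82.7 CPM (SD 3.81) in the KO libraries. *Rpl3l*, the paralog of mature muscle, had 16 counts over the 3 control libraries and 7 over the 3 KO libraries, too few to be tested. *Rpl10l* and *Rpl39l* are known from the testis. *Rpl10l* had 0 counts and 0 TPM in all 6 libraries, which allows up to 0.034 CPM over the 6 libraries (3 read pairs at about 4 counts each, counting error alone). *Rpl39l* also had 0 counts but was listed at 0.11 TPM in control 1 and 0.25 TPM in KO 2, so no limit is given for it.

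**Figure D3:**
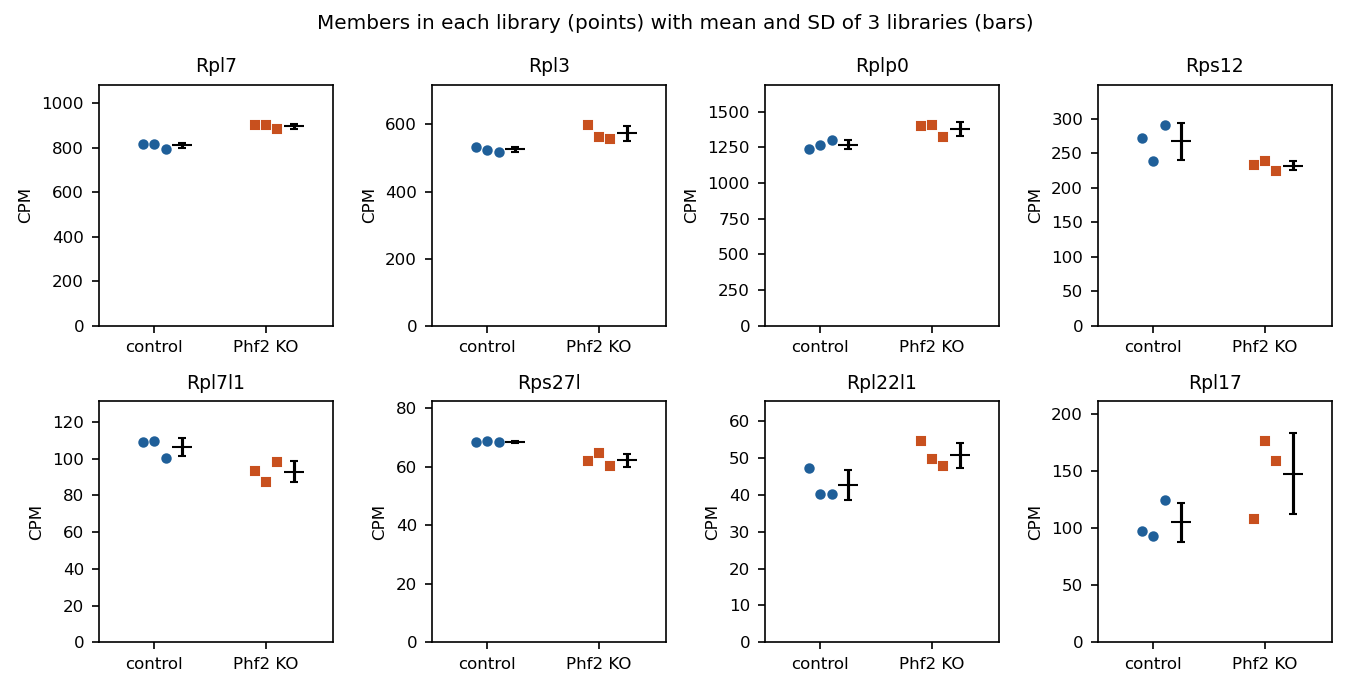
CPM of 8 members in each library (points), with the mean and SD of the 3 libraries of a group (bars), on axes that start at 0. *Rpl7* and *Rpl22l1* are higher and *Rpl7l1* and *Rps27l* lower in every KO library than in every control library, and *Rpl17* and *Rps12* overlap between the groups.

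No gene of the small subunit passed the threshold among 31 tested by edgeR's quasi-likelihood test, with 16 above and 15 below 0. In 5 an unadjusted p was under 0.05, and the other tools run on counts called 0 (exactTest and limma-voom, which called 6.52% and 5.29% of all genes tested) or 1 (DESeq2, which called 10.9%). *Rps6*, the target of the S6 kinases, was at 604, 576 and 578 CPM in control cells and 623, 622 and 615 CPM in KO cells. These values did not overlap, and the log2 fold change was 0.08 (SE 0.037, adjusted p = 0.25 in edgeR's quasi-likelihood test). *Rpsa*, which encodes a protein of the small subunit also known as the laminin receptor, was at 924, 935 and 907 CPM in control cells and 918, 872 and 843 CPM in KO cells, with overlapping groups. *Rps27a* encodes a ribosomal protein fused to ubiquitin and was at 184, 187 and 171 CPM in control cells and 199, 173 and 160 CPM in KO cells. The row of *Rps27a* held 60.8% of the counts of its family. The largest fall of the subunit was in the row of *Rps12*, at 272, 238 and 291 CPM in control cells and 233, 238 and 225 CPM in KO cells. Its groups overlapped at control 2, and the log2 fold change of -0.20 had an adjusted p of 0.088 in edgeR's quasi-likelihood test (0.016 to 0.54 over the alternatives with 6 libraries). *Rps18* followed with -0.16 (adjusted p = 0.33), on a row that held 6.77% of the counts of its family.

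Of the 43 large subunit genes, 26 were above and 17 below 0, and *Rpl7* was the only one past the threshold by edgeR's quasi-likelihood test. In 7 of them (16.3%) the groups did not overlap, against 25.1% of all genes tested and 41.0% of the other genes of at least 100 CPM, and these 7 were higher in KO cells. These were *Rpl3*, *Rpl5*, *Rpl6*, *Rpl7*, *Rpl10*, *Rpl10a* and *Rpl31*, with log2 fold changes between 0.06 and 0.15. *Rpl10*, which encodes a protein near the peptidyl transferase centre, was at 742, 732 and 755 CPM in control cells and 801, 801 and 814 CPM in KO cells (log2 fold change 0.12, adjusted p = 0.069 in edgeR's quasi-likelihood test). *Rpl3*, which encodes one of the largest proteins of the subunit, was at 533, 525 and 518 CPM in control cells and 599, 563 and 557 CPM in KO cells (log2 fold change 0.12, adjusted p = 0.088). The row of *Rpl3* held 59.8% of the counts of its family. *Rpl27a* was at 525, 498 and 451 CPM in control cells and 570, 552 and 519 CPM in KO cells. Its groups overlapped, with an adjusted p of 0.13 without and 0.020 with the replicate block in edgeR's quasi-likelihood test. The row of *Rpl21* was under 5 CPM in every library, with a log2 fold change of 0.23 (95% interval -0.32 to 0.78). The sum over its family was 569, 559 and 533 CPM in control cells and 586, 579 and 558 CPM in KO cells, which overlapped.

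None of the 3 P stalk genes passed the threshold in edgeR's quasi-likelihood test, with an unadjusted p under 0.05 for 1, and DESeq2 called 1, *Rplp0*. *Rplp0* was at 1236, 1267 and 1298 CPM in control cells and 1401, 1408 and 1320 CPM in KO cells. Every KO value was above every control value, with a log2 fold change of 0.12 (SE 0.037, adjusted p = 0.078 in edgeR's quasi-likelihood test, 0.018 to 0.36 over the alternatives with 6 libraries). *Rplp1* was at 538, 506 and 486 CPM in control cells and 517, 485 and 441 CPM in KO cells, and *Rplp2* at 244, 239 and 229 CPM and at 253, 232 and 210 CPM. The groups overlapped for both, with log2 fold changes of -0.08 and -0.04. *Rplp1* and *Rplp2* were lowest in KO 3, the library in which *Rplp0* was the lowest of its group.

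Small subunit genes outside the symbol rule were looked at in the same way. *Fau*, whose product carries the small subunit protein eS30, was at 349, 339 and 340 CPM in control cells and 359, 329 and 300.1 CPM in KO cells. *Rack1*, a scaffold on the small subunit, had a mean of 904 CPM (SD 17.1) in control cells and 907 CPM (SD 49.6) in KO cells. Neither passed the threshold in edgeR's quasi-likelihood test, and 0 did by exactTest, DESeq2 or limma-voom or at an unadjusted p under 0.05. The 19 members known as disease genes of Diamond-Blackfan anaemia, a failure of red cell production, were split into 8 above and 11 below 0 with a median of -0.009, and 0 passed the threshold in edgeR's quasi-likelihood test, with an unadjusted p under 0.05 for 2 and 0 calls by exactTest, DESeq2 or limma-voom.

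The 77 subunit protein genes lie on 19 chromosomes. The 4 on the X chromosome, *Rpl10*, *Rpl36a*, *Rpl39* and *Rps4x*, all had fold changes above 0, at 0.12, 0.09, 0.13 and 0.10 on the log2 scale, and 0 of the 4 passed the threshold in edgeR's quasi-likelihood test, with an unadjusted p under 0.05 for 2 and 1 call by DESeq2. *Rps4x* was at 817, 814 and 815 CPM in control cells and 866, 868 and 881 CPM in KO cells (adjusted p = 0.12 in edgeR's quasi-likelihood test). Of the 6 pseudogene rows, 4 were tested and 0 passed the threshold by edgeR's quasi-likelihood test, DESeq2 or limma-voom. In edgeR's quasi-likelihood test, 0 had an unadjusted p under 0.05. *Rps3a2* had a mean of 376 CPM (SD 12.1) in control cells and 379 CPM (SD 9.15) in KO cells, above the 165 CPM (SD 4.33) and 174 CPM (SD 9.89) of the protein-coding *Rps3a1*. *Rpl32l*, with the lowest fold change of all members at -0.35, was under 1 CPM in every library, and its SE was 0.73. *Rps4l* had 4 counts in control cells and 0 in KO cells, and *Rps12l1* had none.

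Each member was also summed with its near-identical copies. Of the 80 sums tested, 44 were above 0, and again 1 rose and 1 fell (6.82% of all rows of that table passed), *Rpl7* (adjusted p = 0.025) and *Rpl7l1* (adjusted p = 0.044 in edgeR's quasi-likelihood test). The log2 fold changes of the sums lay between -0.19 and 0.22, against -0.20 and 0.49 for the rows of the 80 protein-coding members tested. The sum for *Rps18* was 286, 702 and 268 CPM in control cells and 277, 685 and 235 CPM in KO cells, high in both libraries numbered 2.

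The share of all counts taken by the members was compared last among their own values. Their share was 3.21%, 3.12% and 3.08% in control cells and 3.30%, 3.18% and 3.09% in KO cells. The means of 3.14% ± 0.065 and 3.19% ± 0.11 (SD, n = 3) differed by less than the SD of either group. With the copies added the shares were 3.91% ± 0.078 and 3.96% ± 0.16, and of TPM they were 7.73% ± 0.18 and 7.82% ± 0.24. The highest and the second lowest share were both in KO cells, at KO 1 and KO 3.

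Libraries of a group differed from each other in how long and short members stood. Over the 58 subunit protein genes whose row held at least 80% of family counts, the deviation of a gene's log2 CPM from its mean over the 6 libraries was set against the log2 of its coding length. Pearson's r across these genes, which share a library and so are no independent replicates, was -0.58, -0.11 and 0.26 in control 1 to 3 and -0.46, 0.25 and 0.52 in KO 1 to 3. Genes with under 350 coding bases (n = 14) stood above genes with over 600 (n = 18) by 0.08 in control 1 and 0.07 in KO 1 on the log2 scale, and below them by 0.05 in control 3 and 0.12 in KO 3. The sign of r thus differed within each group, and control 1 and KO 1 stood on the same side. Between KO and control cells the median log2 fold change was -0.03 for the short, 0.008 for the 26 middle and 0.04 for the long genes.

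**Figure D4:**
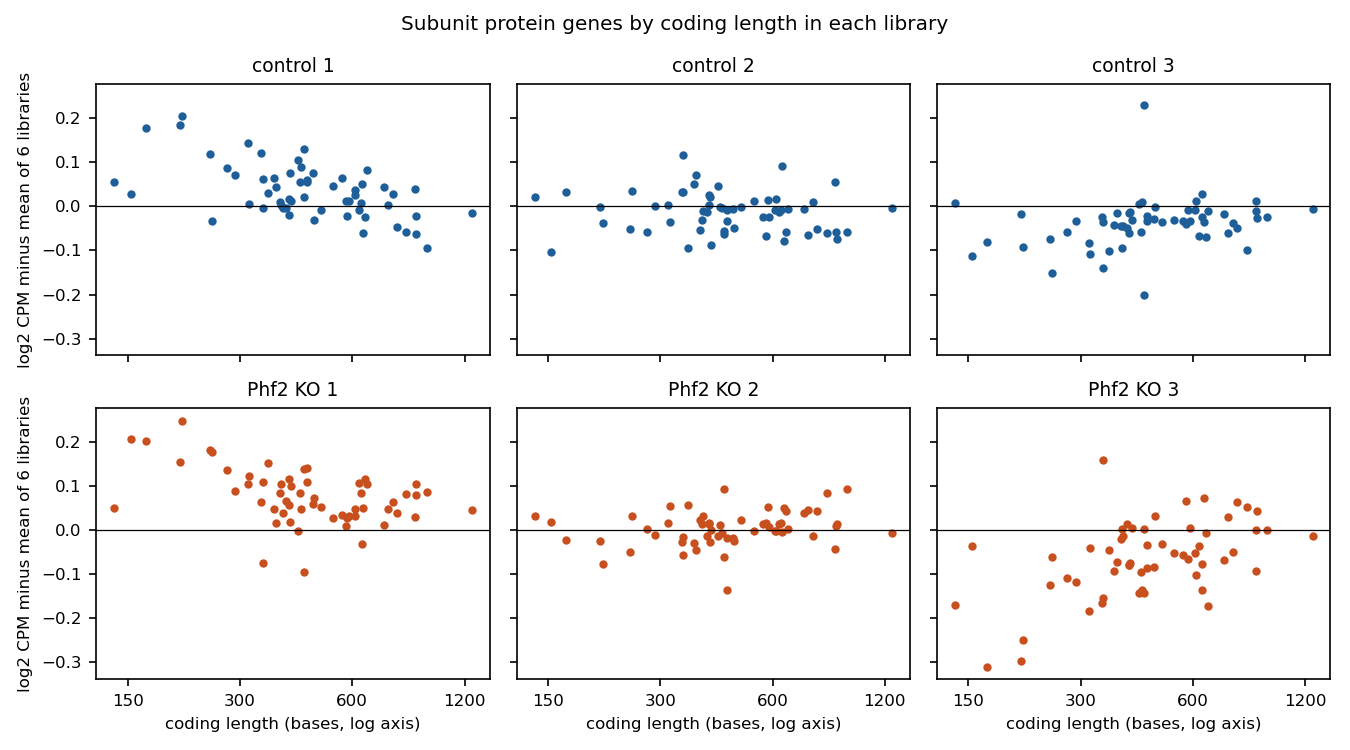
Deviation of log2 CPM from the mean of the 6 libraries for 58 subunit protein genes (points) against coding length in bases (log axis), one panel for each library. Short genes stand high in control 1 and KO 1 and low in KO 3, where r was 0.52.

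Sequence upstream of the members was compared, since the rule used symbols only. The RefSeq table (GRCm38.p6) held a promoter, 250 bases before and 50 after the start, for 64 of the 89 members. The core CGGAAG, which ETS family factors such as GABP are known to bind, was searched on both strands. It stood in 40 of 57 promoters of subunit protein genes (70.2%), in 65.6% of members, in 30.1% of the promoters of tested genes and in 17.2% of all 27025 promoters. TATAAA was in 8.77% of the subunit protein promoters and 7.66% of those of tested genes, and CACGTG, the E box that MYC is known to bind, in 8.77% and 9.91%. A match is a description of these letters and not a site of binding. The stretches shown lie directly upstream of the annotated gene, 5′ to 3′ on its strand, with the core in capitals in either direction. They show a member with the core, *Rps6*, beside 3 members without it in the stretch shown. These 4 are picked examples, and a link between the core and the fold changes was not tested. The whole promoter of *Rps27l* held the core 1 time, outside its stretch, and those of *Rplp0* and *Rpl7l1* held none.
*Rps6*, chr4:86857413-86857467, - strand: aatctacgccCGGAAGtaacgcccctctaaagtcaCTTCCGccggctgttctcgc
*Rplp0*, chr5:115559367-115559466, + strand: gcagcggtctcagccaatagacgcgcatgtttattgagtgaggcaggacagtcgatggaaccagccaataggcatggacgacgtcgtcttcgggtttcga
*Rps27l*, chr9:66945986-66946085, + strand: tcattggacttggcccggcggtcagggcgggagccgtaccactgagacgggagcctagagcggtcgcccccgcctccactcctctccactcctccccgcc
*Rpl7l1*, chr17:46782673-46782756, - strand: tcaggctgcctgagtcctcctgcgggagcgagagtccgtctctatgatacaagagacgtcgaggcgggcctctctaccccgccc

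Genes that share the TOP motif with the ribosomal proteins were next. Of 19 genes of translation elongation and other TOP mRNAs, 13 were above and 6 below 0 with a median of 0.02, and 3 passed the threshold (15.8%, against 6.48% of all genes tested and 16.3% of the non-members of at least 100 CPM), of which 0 did so without control 2 or without KO 2. *Tpt1*, a TOP mRNA for a tumour protein, rose with 2595, 2571 and 2552 CPM in control cells and 2828, 2833 and 2767 CPM in KO cells (log2 fold change 0.13, adjusted p = 0.021 in edgeR's quasi-likelihood test). *Nap1l1*, a histone chaperone, rose by 0.23 on the log2 scale (adjusted p = 0.015), and *Naca*, a subunit of the nascent polypeptide complex at the ribosome exit, had a log2 fold change of -0.19 (adjusted p = 0.0098). Of the 32 initiation factors, 7 were above and 25 below 0 with a median of -0.04, and 0 passed in edgeR's quasi-likelihood test. At an unadjusted p under 0.05 there were 4, and DESeq2 called 4, beside 10.9% of all genes it tested.

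Among the genes of ribosome biogenesis, which make and process ribosomal RNA and build the subunits, most values were below 0. Of 78 tested, 65 were below and 13 above 0, with a median of -0.10 against -0.001 for all genes tested. The median stayed between -0.11 and -0.07 over the 26 fits. The threshold was passed by 1 gene upward and 4 downward (6.41%), beside the background of 6.48%, and the calls were 1 without control 2 or KO 2, 2 without control 1 or KO 3 and 3 without KO 1. In 30 of the 78 (38.5%) the groups did not overlap, 26 of them lower, against 25.1% of all genes tested. An unadjusted p under 0.05 in edgeR's quasi-likelihood test was found for 23, 21 of them lower, beside 3366 of the 17310 genes tested. *Polr1a*, the largest subunit of RNA polymerase I, fell from 103, 105 and 103 CPM to 84.3, 87.9 and 85.0 CPM (log2 fold change -0.27, adjusted p = 0.0017 in edgeR's quasi-likelihood test). *Heatr1* (-0.22), *Ppan* (-0.26) and *Ftsj3* (-0.18), factors of ribosomal RNA synthesis and processing, also fell, and *Ppan* and *Ftsj3* lost the call with the replicate block (adjusted p = 0.052 and 0.051). *Ubtf*, which binds ribosomal DNA and activates its transcription, rose from 129, 134 and 141 CPM to 154, 154 and 151 CPM (log2 fold change 0.19, adjusted p = 0.023 in edgeR's quasi-likelihood test). The members and these genes were not tested against each other.

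Regulators and partners of the ribosome were tested in the same fit. Of 28 tested genes of MYC, mTOR and LARP signalling, 2 passed the threshold (7.14%, against 6.48% of all genes tested). *Sesn3*, an inhibitor of mTORC1, rose (log2 fold change 0.28, adjusted p = 0.012 in edgeR's quasi-likelihood test) and *Rptor*, the mTORC1 subunit that binds its substrates, fell (-0.18, adjusted p = 0.024). The list had 11 values above and 17 below 0, and its calls were 0 without control 2 or KO 3 and 1 without KO 2. With the GC correction the split turned to 16 above and 12 below 0, with a median of 0.018 beside 0.021 for all genes. None of 7 chaperones of ribosomal proteins and none of 9 kinases of the S6 and RSK families passed, with 1 of each list at an unadjusted p under 0.05 and 0 by exactTest or DESeq2. Of the 78 mitochondrial ribosomal protein genes, which serve the separate ribosome of mitochondria, 57 were below and 21 above 0 with a median of -0.06, and *Mrps27* fell (-0.34, adjusted p = 0.016 in edgeR's quasi-likelihood test), which is 1.28% of the list. That call was lost without control 2, KO 2 or KO 3.

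**Figure D5:**
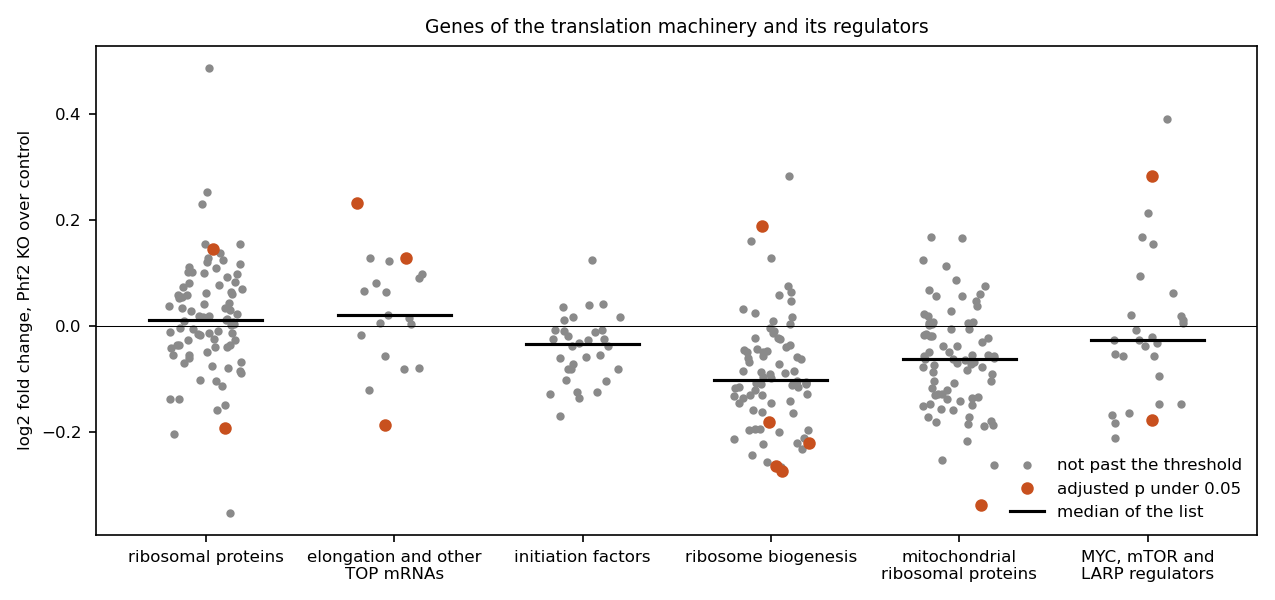
Log2 fold change of KO over control for each gene tested (points) of the ribosomal proteins and 5 other lists, with the median of each list as a bar and genes past the threshold as large points. The median is 0.01 for the ribosomal proteins, -0.10 for ribosome biogenesis and -0.06 for the mitochondrial ribosome.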

How the data were processed

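Poly(A) RNA of 3 control and 3 *Phf2* KO libraries was analysed. The authors aligned reads to mm10 with HISAT2 and deposited a matrix of expected or estimated counts per gene from StringTie; versions and annotation are not given in the sources used here. For single-transcript genes, covered bases per count were 75.0, against reads of 150 bases, so a read pair adds about 4 counts, which were used as deposited. Per the file headers, the tables of single libraries hold TPM scaled by the authors within each library, for reference genes and for assembled loci (only the former were used), and coverage, which was used to find the unit of the counts and for nothing else.

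Counts were fitted on the whole table in R 4.3.3 with edgeR 4.0.16 (filterByExpr with a minimum count of 10, TMM, robust quasi-likelihood test, two-sided, Benjamini-Hochberg adjustment over 17310 genes, threshold 0.05, prior count 0.125). The study's exactTest, DESeq2 1.42.0, limma 3.58.1 (log2(TPM + 1) and log2(TPM + 0.1)) and other scalings, filters and left-out libraries were alternatives. TMM factors were 0.995 to 1.004. Scripts were tested on simulated data. Symbols and coordinates are of GENCODE M21. Near-identical copies were found with blastn.

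Replicate numbers were checked for pairing on 10923 genes. Same-numbered libraries correlated in their deviations from the group means (Pearson's r 0.29, 0.20 and 0.16, against -0.24 to 0.02 for other pairs), so the replicate block is printed where it changes a call. By Spearman's rho the same pairs gave 0.25, -0.03 and 0.10, against -0.23 to 0.16 for other pairs, so by rank the numbers did not stand apart.

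Members and gene lists were chosen with earlier results of these data known. Genes named were *Phf2*, members past the threshold, the 4 highest and 4 lowest fold changes, the 5 highest and 5 lowest levels, paralogs, P stalk, *Rps6*, *Rpsa*, *Rps27a*, *Fau*, *Rack1*, up to 5 called genes of each list, and markers. *Rpl3*, *Rpl5*, *Rpl6*, *Rpl10*, *Rpl10a*, *Rpl31*, the X-linked and pseudogene rows, and the copies were named after their values were seen. A gene that the rule would name is not reported here. Intervals cover the spread between wells.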

Additional observations from a re-analysis of the deposited data

How the results depend on the processing

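The number of members past the threshold ran from 0 to 8 over 28 settings, against 2 as reported. It was 1 with exactTest (*Rpl17*, adjusted p = 0.048) and with limma-voom (*Rpl7*), 7 with DESeq2, 4 with a GC correction, 6 with a length correction, 1 with "-ps" rows added to their genes, and 0 with limma on log2(TPM + 1) or log2(TPM + 0.1) or at a threshold of 0.01. The share of all genes tested that passed was 6.52% with exactTest, 5.29% with limma-voom, 10.9% with DESeq2 and 6.59% with "-ps" rows added. It was 6.89% with the GC correction, 6.96% with the length correction, and 0.913% and 1.03% on TPM with the pseudocounts of 1 and 0.1. With the GC correction and the replicate block together 8 members passed, beside 7.95% of all genes tested. With the replicate block alone 3 passed, beside 7.6%. Without single libraries the number of members was between 0 and 2, beside 2.62% to 5.8% of all genes tested. Among large subunit and P stalk genes (1 as reported) it was 4 with DESeq2, 2 with the replicate block, 3 with the GC correction, 5 with the GC correction and the block, 5 with the length correction and 0 on TPM, and between 0 and 2 without single libraries. Among small subunit genes (0 as reported) it was 1 with DESeq2, 1 with the GC correction and 2 with the GC correction and the block, and between 0 and 1 without single libraries. Among paralogs and pseudogene rows (1 as reported) it was 0 with exactTest, limma-voom, the GC correction, "-ps" rows added and on TPM, 2 with DESeq2, without a filter, with a filter at 1 CPM and with counts divided by 4, and between 0 and 1 without single libraries.

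DESeq2 called 5 of 19 genes of elongation and TOP mRNAs, 4 of 32 initiation factors and 8 of 78 of ribosome biogenesis. It called 10.9% of all genes tested. On TPM, 0 were called among the lists of elongation, biogenesis, MYC and mTOR, and the mitochondrial ribosome. Without single libraries the counts were between 0 and 4 for elongation, 1 and 6 for biogenesis, 0 and 3 for MYC and mTOR, and 0 and 1 for the mitochondrial ribosome. The cause of these differences was not tested. The replicate block changed the calls of *Rpl7l1*, *Rpl22l1*, *Rpl27a*, *Nol6* (gained, adjusted p = 0.043), *Ftsj3*, *Ppan* and the marker *Acta1* (gained), and no other call of a member or list gene. *Rpl7* and *Rpl7l1* kept their direction in 25 of 25 alternatives. Family sums and counts divided by 4 were added after seeing the data.

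Estimated counts give no read-level counting error, and reads shared with copies cannot be assigned to a gene from these files. The design has 1 pool of cells per genotype.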

Other observations

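Beside the members, 319 rows carry a "-ps" symbol of a ribosomal protein. Of these, 125 passed the filter on low counts and 0 passed the threshold in edgeR's quasi-likelihood test, with 4 at an unadjusted p under 0.05 and 1 called by DESeq2. Host genes of small nucleolar RNAs, which often also begin with a TOP motif, were a list chosen after the values were seen. Of 18 tested, 11 were above 0 with a median log2 fold change of 0.05, and 0 passed in edgeR's quasi-likelihood test or by DESeq2, with 3 at an unadjusted p under 0.05.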
